A study of Mus musculus with 230 samples.

Results

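The comparison set saline-injected mice at 30 d of withdrawal against uninjected mice at 24 h, in the nucleus accumbens (NAc) of mice that had self-administered saline. Its libraries were those labelled nucleus accumbens and saline self-administration, with either a saline challenge (SS, 6 libraries) or no challenge (S24, 8 libraries), which made 14 of the 230 RNA sequencing libraries of the series. SS libraries came from male C57BL/6J mice with a history of saline self-administration, which spent 30 d in withdrawal and received a single intraperitoneal injection of saline 1 h before the tissue was taken; the labels place the challenge "within the drug SA" and say no more of the setting. S24 libraries came from male C57BL/6J mice with the same saline self-administration, whose tissue was taken at 24 h of withdrawal with no injection. By the labels neither group had received cocaine, and both stand in the study as the saline controls of their own time point; ages are not given in the sources used here. The injection, the time since self-administration and the handling changed together. The numbers in the library titles, taken here as mice, ran from NAc-035 to NAc-162 in SS and from NAc-182 to NAc-225 in S24, so a difference between cohorts cannot be told apart from them either.

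The nucleus accumbens is the ventral part of the striatum, built mostly of projection neurons that carry D1 or D2 dopamine receptors. Immediate early genes such as Fos and Npas4 are transcribed within minutes of synaptic activity, and chaperone genes are transcribed when proteins misfold in the cytosol (the heat shock response) or in the endoplasmic reticulum (the unfolded protein response). Cirbp and Rbm3 encode RNA-binding proteins known for their induction by mild cold.

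Total counts ran from 19765785 to 29662183 in SS and from 16258641 to 42135683 in S24, and did not differ beyond the spread between libraries (exact 2-sided permutation p = 0.936). The libraries carried striatal transcripts. Drd1 had 160, 277 and 328 CPM (counts scaled to the same library size with TMM factors; lowest, median and highest) in SS, against 227, 280 and 304 CPM in S24, and Drd2 had 73.5, 130 and 155 CPM in SS, against 93.6, 113.1 and 151.3 CPM in S24. Library NAc-094 of SS held the lowest values of both. Libraries NAc-185 and NAc-193 of S24 carried cortical transcripts: Slc17a7, the vesicular glutamate transporter gene of cortical neurons, reached 229 and 305 CPM there, against at most 35.9 CPM in the SS and 14.6 CPM in the other S24 libraries. Slc6a3, which marks midbrain dopamine neurons, stayed at or under 0.731 CPM in SS and 2.78 CPM in S24. Transcripts of blood cells, summed over 8 marker genes, were lower in SS (31.7, 56.6 and 82.2 CPM against 69.5, 154 and 528 CPM in S24; exact 2-sided permutation p = 0.00266, 0.0176 adjusted over 33 library measures), with 5 of 6 SS libraries under the lowest S24 library; their part in the results was not tested. A difference in a bulk tissue level can come from fewer cells of a type or from less RNA per cell, and these cannot be told apart here.

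Genes that help proteins fold were higher 1 h after the injection at 30 d, and only some immediate early genes passed the test. The cold-inducible genes Cirbp and Rbm3 were lower, Rbm3 with overlapping groups. Of 16935 genes tested with the edgeR quasi-likelihood test at a Benjamini-Hochberg adjusted p under 0.05, 642 (3.79%) were called in SS, of which 323 (1.91% of those tested) rose and 319 (1.88%) fell. Most changes were small, with a median log2 fold change of 0.39 among the genes that rose and -0.51 among those that fell, and 21 and 22 of them reached a size of 1 on the log2 scale. In 309 genes (1.82% of those tested) the 6 SS and the 8 S24 libraries did not overlap, with SS above in 159 (0.939%) and below in 150 (0.886%). Without library NAc-162 of SS the counts were 184 higher and 164 lower, without NAc-073 of SS 196 and 165, and without NAc-205 of S24 the lower count was 202; without NAc-094, NAc-185 and NAc-193 there were 385 calls, 184 of them lower. P-values of the fit measure the spread between libraries within groups, estimated over all 39 accumbens libraries of 6 groups. Libraries are spoken of here, since the labels name no animals beyond the title numbers.

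Some chaperones of the endoplasmic reticulum had among the smallest p-values of the genes that rose. Hspa5 (BiP, the main Hsp70 chaperone of that compartment; mm10 chromosome 2, 34771970 to 34777547, plus strand) had 365, 435 and 535 CPM in SS, against 203.6, 215 and 274 CPM in S24. Every SS library lay above every S24 library, and the log2 fold change was 0.94 (SE 0.13, edgeR adjusted p = 7.23e-05). Pdia6, a disulfide isomerase, had 119, 138 and 150 CPM in SS, against 76.0, 81.7 and 103 CPM in S24, again with no overlap (log2 fold change 0.67, SE 0.094, adjusted p = 7.35e-05). The disulfide isomerase Pdia4 rose by 0.91, the calcium-binding chaperone Calr by 0.60 and Hsp90b1, the Hsp90 of the compartment, by 0.62 on the log2 scale (adjusted p = 0.000194 each). Sdf2l1 had 10.1, 12.3 and 16.1 CPM in SS, against 4.22, 6.198 and 9.29 CPM in S24, and rose by 0.99 on the log2 scale (SE 0.20, adjusted p = 0.00267). Of 40 genes that act in folding or quality control in the endoplasmic reticulum, a list put together after values were seen, 14 rose and 0 fell, against 1.91% of all genes that rose, with a median of 0.14 against -0.008 over all genes tested; 1 was called lower by DESeq2, by limma voom, with 2 surrogate variables, with only the groups compared and without NAc-035. Xbp1, the transcription factor of the unfolded protein response that is activated by splicing, rose by 0.59 (adjusted p = 0.000721). Its upstream sensor gene Ern1 was at -0.01 (adjusted p = 0.986), and the stress factors Atf4 and Ddit3 were at 0.00 and 0.13 (adjusted p = 0.990 and 0.492).

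The endoplasmic reticulum stress element, a known binding motif of the factors Atf6 and Nfy, was searched on both strands of the RefSeq promoters of GRCm38.p6, the assembly of mm10, from 250 bases before to 50 after each start, as CCAAT and CCACG with any 9 bases between them. It occurred in 37 of 27025 genes with a promoter (0.137%), in 20 of the 12316 of them that were tested (0.162%), in 6 of the 253 genes that rose and had a promoter in the table (2.37%), and in 1 of 236 such genes that fell (0.424%). The 6 were Hspa5, Hsp90b1, Pdia6, Calr, Creld2 and Dnajc3, all on the endoplasmic reticulum list, of whose members 12 rose and had a promoter in the table. The matches are shown in the direction of the motif, since they are the stretch these promoters share, with the fixed letters in capitals:
Hspa5, chr2:34772025-34772043: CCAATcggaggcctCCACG
Hsp90b1, chr10:86705638-86705656: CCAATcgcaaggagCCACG
Hsp90b1, chr10:86705533-86705551: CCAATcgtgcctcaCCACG
Pdia6, chr12:17266491-17266509: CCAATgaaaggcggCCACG
Calr, chr8:84847075-84847093: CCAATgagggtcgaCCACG
Creld2, chr15:88819520-88819538: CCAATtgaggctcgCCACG
Dnajc3, chr14:118937827-118937845: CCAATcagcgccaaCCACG
They began 65 to 212 bases before the start. In Hspa5, Pdia6, Dnajc3 and the first of the pair in Hsp90b1 the motif ran along the gene's strand, and in the others on the opposite strand. The 250 bases before the start of Hspa5 and of Pdia6, the endoplasmic reticulum genes with the smallest p, show where it lies, with its fixed letters in capitals:
Hspa5, chr2:34771840-34772089, plus strand: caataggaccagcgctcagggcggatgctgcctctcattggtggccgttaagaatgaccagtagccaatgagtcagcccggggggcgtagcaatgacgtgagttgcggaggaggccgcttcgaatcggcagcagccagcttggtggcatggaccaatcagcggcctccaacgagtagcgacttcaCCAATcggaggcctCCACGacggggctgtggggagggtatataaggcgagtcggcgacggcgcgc
Pdia6, chr12:17266339-17266588, plus strand: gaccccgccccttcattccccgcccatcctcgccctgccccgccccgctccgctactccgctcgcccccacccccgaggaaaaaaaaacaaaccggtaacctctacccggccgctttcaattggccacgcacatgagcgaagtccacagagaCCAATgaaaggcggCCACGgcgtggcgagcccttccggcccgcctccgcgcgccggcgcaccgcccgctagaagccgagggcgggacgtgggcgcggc
A pair of other motifs was searched the same way. The heat shock element, searched as TTC, GAA and TTC with any 2 bases between them, occurred in 69 of the tested genes (0.56%), in 3 of the 253 that rose (1.19%) and in 2 of 236 that fell (0.847%); it was in 2 of the 16 cytosolic chaperone genes that rose and had a promoter, Chordc1 and Hsph1, and in 0 of the 12 of the endoplasmic reticulum. The cyclic AMP response element, TGACGTCA, occurred in 414 of the tested genes (3.36%), in 14 that rose (5.53%) and in 7 that fell (2.97%). It was in 0 of the 12 endoplasmic reticulum and 0 of the 16 cytosolic chaperone genes that rose and had a promoter. The shares were not tested. The stress element is known from chaperone genes of the endoplasmic reticulum, so its matches there are no evidence apart from the calls themselves. A match is a stretch of letters and says nothing of binding in this tissue.

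The chaperones of the cytosol rose with them. Hspa1b, a stress-induced Hsp70 (chromosome 17, 34956436 to 34959238, minus strand), had 5.005, 8.07 and 15.7 CPM in SS, against 0.534, 1.02 and 1.58 CPM in S24. The groups did not overlap, and its log2 fold change of 3.13 (SE 0.48, edgeR adjusted p = 0.000194) was the largest of the genes named by the rule. Its neighbour Hspa1a had 2.09, 3.13 and 6.77 CPM in SS, against 0.575, 0.796 and 1.70 CPM in S24 (log2 fold change 1.81, SE 0.39, adjusted p = 0.00467). The genes are near-identical copies, so their reads may be shared and the split between them is uncertain. The small heat shock protein gene Hspb1 rose by 1.37 (adjusted p = 0.000721) with a narrow overlap: SS ran from 5.41 CPM, and S24 reached 5.45 CPM. Cryab, which encodes the lens and glial chaperone alpha B-crystallin, had 75.6, 94.4 and 124 CPM in SS, against 35.9, 52.5 and 70.7 CPM in S24, and rose by 0.89 (SE 0.17, adjusted p = 0.00130).

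Abundant chaperones moved by less. Hspa8, the constitutive Hsp70, had 1121, 1295 and 1408 CPM in SS, against 729, 877 and 1081 CPM in S24, with no overlap (log2 fold change 0.57, SE 0.093, adjusted p = 0.000284). Hsp90ab1, the constitutive Hsp90, was the most abundant, with 1534, 1864 and 1959 CPM in SS, against 1219, 1434 and 1631 CPM in S24, and its groups overlapped (0.34, SE 0.072, adjusted p = 0.00356). Hsph1, which exchanges nucleotide on Hsp70, had 422, 524 and 624 CPM in SS, against 264, 323 and 353 CPM in S24 (0.76, SE 0.12, adjusted p = 0.000244). Stip1, which hands clients from Hsp70 to Hsp90, rose by 0.57, and Ahsa2, an Hsp90 activator homologue, by 0.71 (adjusted p = 0.000244 each). Of 32 genes of cytosolic and nuclear heat shock, a list also put together after values were seen, 21 rose and 0 fell, against 1.91% of all genes that rose, with a median of 0.40. Hsf1, the transcription factor of the heat shock response, rose by 0.28 (adjusted p = 0.0177). The counting is not stated to use strand, and Pdia6, Hsp90b1, Cryab, Zbtb40, Hdac4, Rbm3, Dusp1, Junb, Dbp and Hs3st5 overlap an annotated gene on the opposite strand, so their values are uncertain by that gene's reads.

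**Figure D1:**
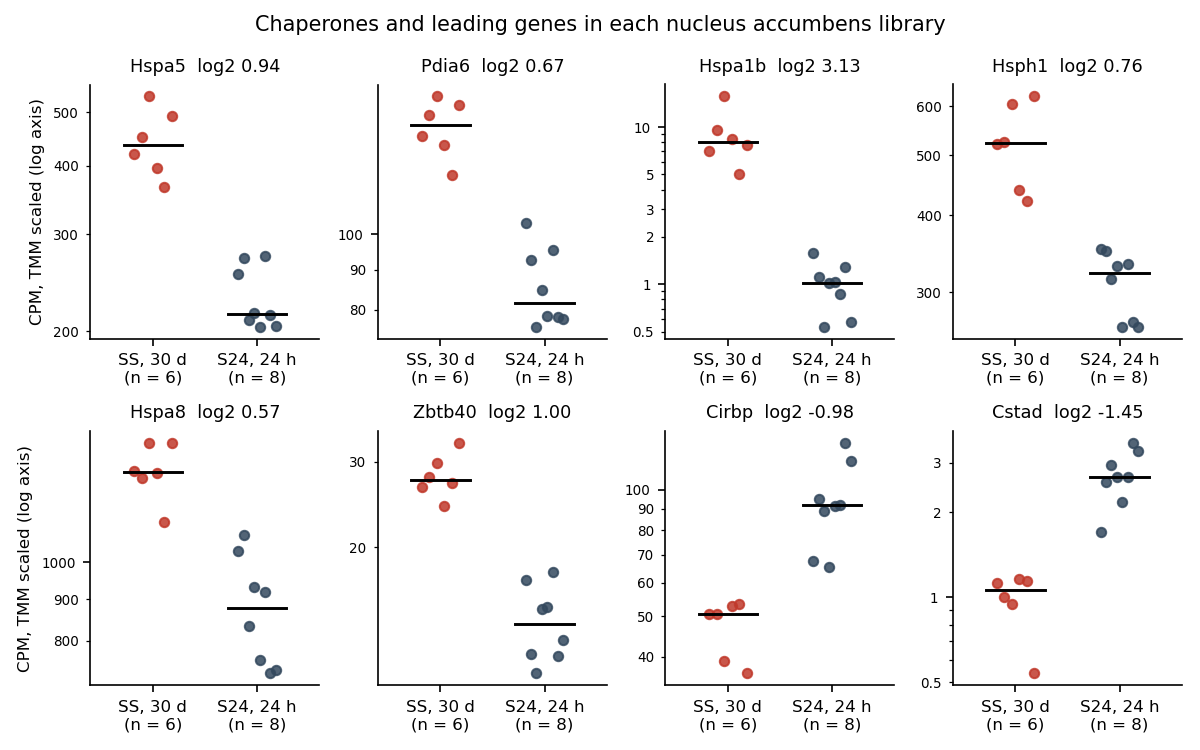
CPM scaled by TMM (log axis) of 8 genes in each of the 6 SS libraries and the 8 S24 libraries; each point is a library and each bar a median. In all 8 genes the groups do not overlap: SS lies above S24 in the 5 chaperones and Zbtb40, and below it in Cirbp and Cstad.

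Of the 27 genes of a heat shock and protein folding list that spans both compartments, 25 rose and 0 fell in SS, against 1.91% of all genes that rose. The list was chosen with earlier results of these data known, so its count describes the calls and is no evidence apart from them. The members without a call were the mitochondrial co-chaperone Hspe1 (0.25, adjusted p = 0.307) and Bag3, a co-chaperone of Hsp70 (0.40, adjusted p = 0.0509). The median log2 fold change was 0.57, against -0.008 over all genes tested. In 15 of the 27, SS lay above S24 without overlap, against 0.939% of all genes tested. Summed over the list, SS libraries had 6073, 6818 and 7607 CPM, against 4333, 4850 and 5731 CPM in S24. All 6 sums lay above the 8 of S24, library NAc-094 included. Without NAc-094, NAc-185 and NAc-193, 25 of the 27 rose, with a median of 0.58. Of the 40 endoplasmic reticulum genes 12 then rose. Over all fits the count was 22 to 26 for the 27 genes and 11 to 15 for the 40, both lowest without NAc-073. For the 32 cytosolic genes it was 17 to 24, lowest without NAc-162. Dnajb4 and Hspa4 lost their calls without any 1 of NAc-073, NAc-162 or NAc-225, Hspa4 also without NAc-205, and Hspd1 without NAc-073.

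Outside the chaperones, Zbtb40 had the smallest p together with Hspa5. This zinc finger gene (chromosome 4, 136979732 to 137048801, minus strand) had 24.3, 27.5 and 32.9 CPM in SS, against 11.01, 13.9 and 17.8 CPM in S24. The groups lay well apart, and it rose by 1.00 on the log2 scale (SE 0.13, edgeR adjusted p = 7.23e-05). Hdac4, a histone deacetylase that shuttles between cytoplasm and nucleus, had 49.1, 52.2 and 59.7 CPM in SS, against 29.1, 36.7 and 38.99 CPM in S24 (0.59, SE 0.090, adjusted p = 0.000194). The DNA-binding protein gene Banp rose by 0.63 and the RING finger gene Lonrf1 by 0.47 (adjusted p = 0.000219 each). Bfsp2, a filament gene of the lens, rose by 1.23 from low levels, with 4.44, 6.17 and 8.13 CPM in SS, against 1.77, 2.75 and 3.61 CPM in S24 (adjusted p = 0.000940). The histone gene Hist2h4 rose by 1.18 (adjusted p = 0.00858), with 1.68 to 2.94 CPM in SS, against 0.557 to 1.45 CPM in S24.

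Cirbp had the second smallest p among the genes that fell. It encodes the cold-inducible RNA-binding protein (chromosome 10, 80165985 to 80172786, plus strand) and had 36.5, 50.6 and 53.6 CPM in SS, against 65.4, 91.7 and 130 CPM in S24. No library of one group reached the range of the other, and the log2 fold change was -0.98 (SE 0.15, edgeR adjusted p = 0.000194). Rbm3, the other well-known cold-inducible RNA-binding protein gene, was looked at after values were seen and had 56.4, 63.1 and 68.7 CPM in SS, against 49.8, 89.6 and 112 CPM in S24. Here the groups overlapped, since 1 S24 library lay below all of SS (-0.49, SE 0.12, adjusted p = 0.0122). Cirbp kept its call in all 23 alternative fits of this comparison.

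The other genes that fell were mostly of low or middle abundance. Cstad (chromosome 2, 30595040 to 30608943, plus strand) had the smallest p, with 0.537, 1.06 and 1.16 CPM in SS, against 1.70, 2.67 and 3.53 CPM in S24 (-1.45, SE 0.21, adjusted p = 0.000117). Oacyl, named for an acyltransferase domain, had 1.55, 1.74 and 1.93 CPM in SS, against 2.69, 4.43 and 6.28 CPM in S24 (-1.35, SE 0.21, adjusted p = 0.000219). The zinc finger gene Zfp46 had 40.3, 47.9 and 49.4 CPM in SS, against 52.7, 82.4 and 117 CPM in S24 (-0.83, SE 0.13, adjusted p = 0.000219). In all of these the SS libraries lay below the S24 libraries. The phospholipase gene Pla2g4e fell by 1.30, the anion exchanger gene Slc26a8 by 1.15 and the platelet receptor gene Gp1ba by 0.96 on the log2 scale, without overlap. Fbxl4, a mitochondrial F-box gene, Parn, which shortens poly(A) tails, Mri1 of methionine salvage, the centrosome gene Ninl and Cln6, a gene of neuronal ceroid lipofuscinosis, fell by 0.41 to 0.70, as did Fndc10, Nxpe4 and Rsad1.

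Genes transcribed after neuronal activity were compared next, since the SS tissue was taken 1 h after an injection. Of 22 immediate early transcription factor genes, 7 rose and 0 fell, against 1.91% of all genes that rose, and the median was 0.47. Fosb had 25.1, 38.1 and 46.1 CPM in SS, against 13.8, 18.9 and 22.4 CPM in S24, with every SS library above S24 (0.95, SE 0.17, edgeR adjusted p = 0.000696). Fos had 17.2, 24.8 and 29.3 CPM in SS, against 4.02, 9.21 and 21.2 CPM in S24, so the groups overlapped while the fold change was larger (1.23, SE 0.27, adjusted p = 0.00514). Npas4, a factor specific to neurons, had 22.8, 33.3 and 42.98 CPM in SS, against 10.8, 13.8 and 24.0 CPM in S24 (1.15, SE 0.23, adjusted p = 0.00252). Klf4 and Klf2, zinc finger factors also known from endothelium, rose by 0.83 and 0.69, Btg2, a gene that slows division, by 0.69, and Fosl2 by 0.68 (adjusted p = 0.000616, 0.00286, 0.0168 and 0.0441).

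Other members of the same families did not pass in this fit. Egr1 had 209, 283 and 368 CPM in SS, against 143.4, 200.6 and 310 CPM in S24 (0.41, SE 0.18, adjusted p = 0.226), and Nr4a1 had 70.3, 110 and 151.4 CPM in SS, against 39.9, 82.97 and 136 CPM in S24 (0.48, SE 0.23, adjusted p = 0.268). Both had wide, overlapping ranges, and each passed in 1 of the 23 alternative fits, Egr1 with 2 surrogate variables (adjusted p = 0.0124) and Nr4a1 without NAc-094, NAc-185 and NAc-193 (adjusted p = 0.0439). Junb was at 0.29 and Egr2 at 0.63 (adjusted p = 0.509 and 0.279). A p that misses the threshold does not show that these genes were level: 20 of the 22 had positive values. Among 25 genes of activity-induced effectors, which act at synapses or are secreted, 2 rose and 0 fell, against 1.91% of all genes that rose; the count was 5 with 2 surrogate variables, 4 without NAc-094, NAc-185 and NAc-193, 3 without NAc-185, and 1 with no filter on low counts or without any 1 of NAc-035, NAc-052, NAc-162, NAc-201, NAc-204 or NAc-225. The 2 were Arc, which trims AMPA receptors at synapses, and Ccn1, a secreted matrix protein gene, which had 6.82, 8.08 and 9.13 CPM in SS, against 3.71, 4.53 and 6.57 CPM in S24, with no overlap (0.73, adjusted p = 0.00102).

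**Figure D2:**
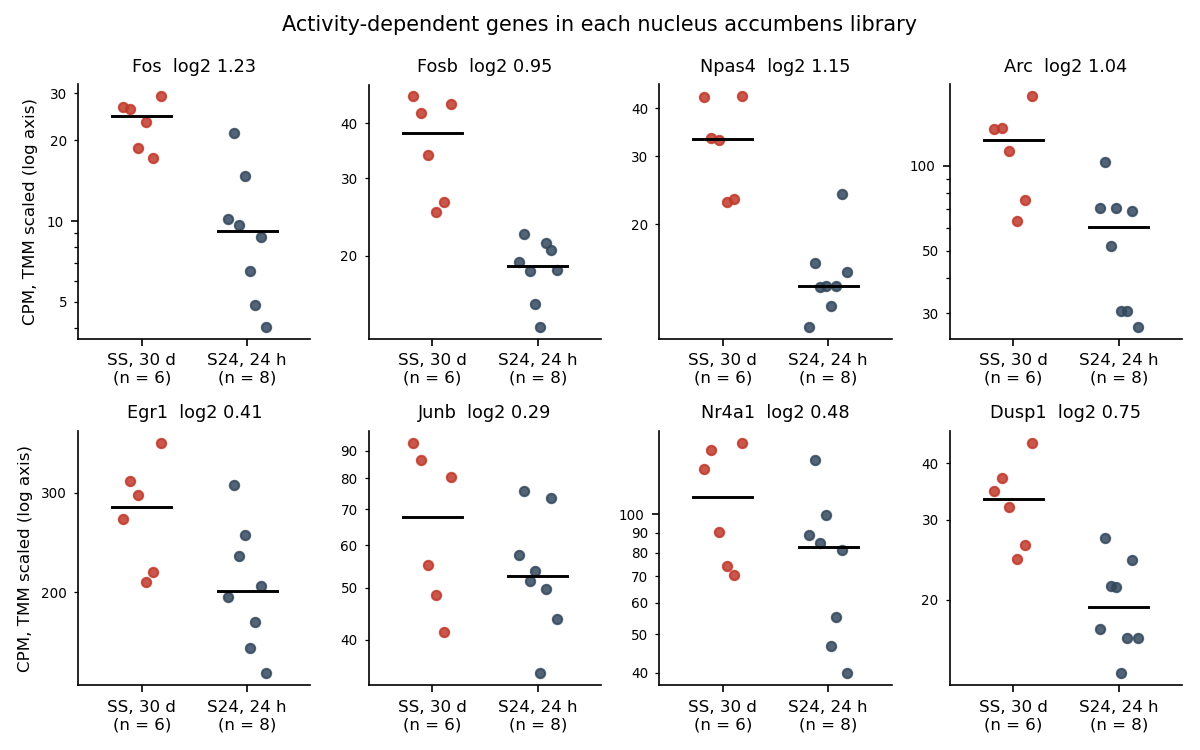
CPM scaled by TMM (log axis) of 8 activity-dependent genes in each of the 6 SS and 8 S24 libraries; points are libraries and bars medians. The groups are apart in Fosb, touch or overlap in Fos, Npas4, Arc and Dusp1, which passed the test, and overlap widely in Egr1, Junb and Nr4a1, which did not.

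Arc had 63.8, 124 and 177 CPM in SS, against 26.8, 60.5 and 104 CPM in S24 (1.04, SE 0.28, adjusted p = 0.0249), and lost its call when any of libraries NAc-035, NAc-052, NAc-162, NAc-201, NAc-204 or NAc-225 was left out, with no filter on low counts (adjusted p = 0.0609) and with only the groups compared (adjusted p = 0.0626). Fosl2 lost its call without any 1 of NAc-035, NAc-052, NAc-073, NAc-162, NAc-201, NAc-204, NAc-205 or NAc-225, and with no filter (adjusted p = 0.0880), and Btg2 without NAc-162. Of 18 genes for feedback kinases and phosphatases only Dusp1 rose in this fit, beside 1.91% of all genes that rose. Dusp1, which switches off MAP kinases, had 24.6, 33.4 and 44.5 CPM in SS, against 13.7, 19.3 and 27.3 CPM in S24 (0.75, SE 0.15, adjusted p = 0.00229). The kinase gene Sik1, a target of CREB, was at 0.20 (adjusted p = 0.274). Without NAc-094, NAc-185 and NAc-193, 8 of the 22 transcription factor genes rose, with a median of 0.81, and without NAc-162 the count was 5 with a median of 0.38. With 2 surrogate variables 11 rose and with DESeq2 10.

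Genes that respond to glucocorticoids gave a mixed picture. Of 29, 3 rose and 0 fell (median 0.11), against 1.91% of all genes that rose. The fit of only the compared groups called 4 higher and 2 lower, and 1 was called lower by DESeq2, with 2 surrogate variables and without NAc-182 or NAc-193. Tsc22d3, which encodes the glucocorticoid-induced leucine zipper, had 91.4, 120 and 154 CPM in SS, against 52.96, 71.9 and 112.9 CPM in S24 (0.62, SE 0.14, edgeR adjusted p = 0.00866), and Pdk4, a brake on pyruvate oxidation, rose by 0.60 (adjusted p = 0.00162). The third was Dusp1, counted above. Fkbp5, a co-chaperone of the glucocorticoid receptor, had 54.2, 60.7 and 68.2 CPM in SS, inside the 48.8, 65.3 and 92.1 CPM of S24 (-0.17, adjusted p = 0.583), and the kinase gene Sgk1 was at 0.16 (adjusted p = 0.636).

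Of 21 clock genes Per2 alone was called in this fit, beside 3.79% of all genes called in either direction. A second rose by DESeq2, with 2 surrogate variables and without NAc-094, NAc-122 or NAc-185, and 1 fell without NAc-182. Per2 had 102, 134 and 156 CPM in SS, against 62.8, 78.7 and 110 CPM in S24, with a small overlap (0.64, SE 0.13, adjusted p = 0.00289). Its paralogue Per1 had 132, 162.5 and 201.4 CPM in SS, against 133, 158 and 204.9 CPM in S24 (0.02, adjusted p = 0.960). Dbp, an output gene of the clock, was at -0.20 (adjusted p = 0.492) and Nr1d1, a repressor of the loop, at -0.28 (adjusted p = 0.176).

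Genes that mark cell types or set the excitability of the tissue showed few calls. None of 13 shared, 8 direct and 6 tested indirect pathway markers of projection neurons was called, nor any of 22 glutamate receptor genes or 19 tested genes of opioid and dopamine signalling. Drd1, Drd2, Pdyn and Penk had log2 fold changes of -0.02, 0.03, -0.06 and -0.07 (adjusted p = 0.956, 0.951, 0.874 and 0.873), with 95% intervals of the fit from -0.28 to 0.23, -0.26 to 0.32, -0.32 to 0.20 and -0.36 to 0.22. Single markers rose in 3 glial lists, Ermn among 12 oligodendrocyte genes (0.63), Gpr17 among 10 of precursors and new oligodendrocytes (0.49) and Tmem119 among 12 of microglia (0.40), beside 1.91% of all genes that rose. Slc6a13 fell by 0.92 among 10 leptomeningeal genes, beside 1.88% of all genes that fell. Ermn lost its call without NAc-073 or NAc-094, Tmem119 without NAc-073, NAc-191 or NAc-205, and Gpr17 and Slc6a13 without any 1 of several libraries, among them NAc-035, NAc-073, NAc-094, NAc-162, NAc-201 and NAc-205. Upper quartile factors also ended the calls of Tmem119 and Gpr17, no filter on low counts those of Gpr17 and Slc6a13, and limma voom that of Slc6a13. All 26 oxidative phosphorylation genes and all 26 ribosomal protein genes had negative values with medians of -0.10 and -0.09, and none was called. Blood markers had a median of -1.52 and 0 calls among 7 tested by edgeR, while DESeq2 called 3 lower and the fit of only the compared groups 4 of 6; without NAc-185 the median was -0.96, and without NAc-094, NAc-185 and NAc-193 it was -0.79. Cortical markers had a median of -1.53 and 0 calls among 10. Without NAc-193 that median was -0.82, and without both NAc-185 and NAc-193 its direction turned, to 0.11; it was -0.64 by limma voom and -0.31 with 2 surrogate variables. Interferon-induced genes, 23 tested, had 0 calls; Gbp4 was at -0.50 and Tnfsf10 at -0.15 (adjusted p = 0.748 and 0.862).

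**Figure D3:**
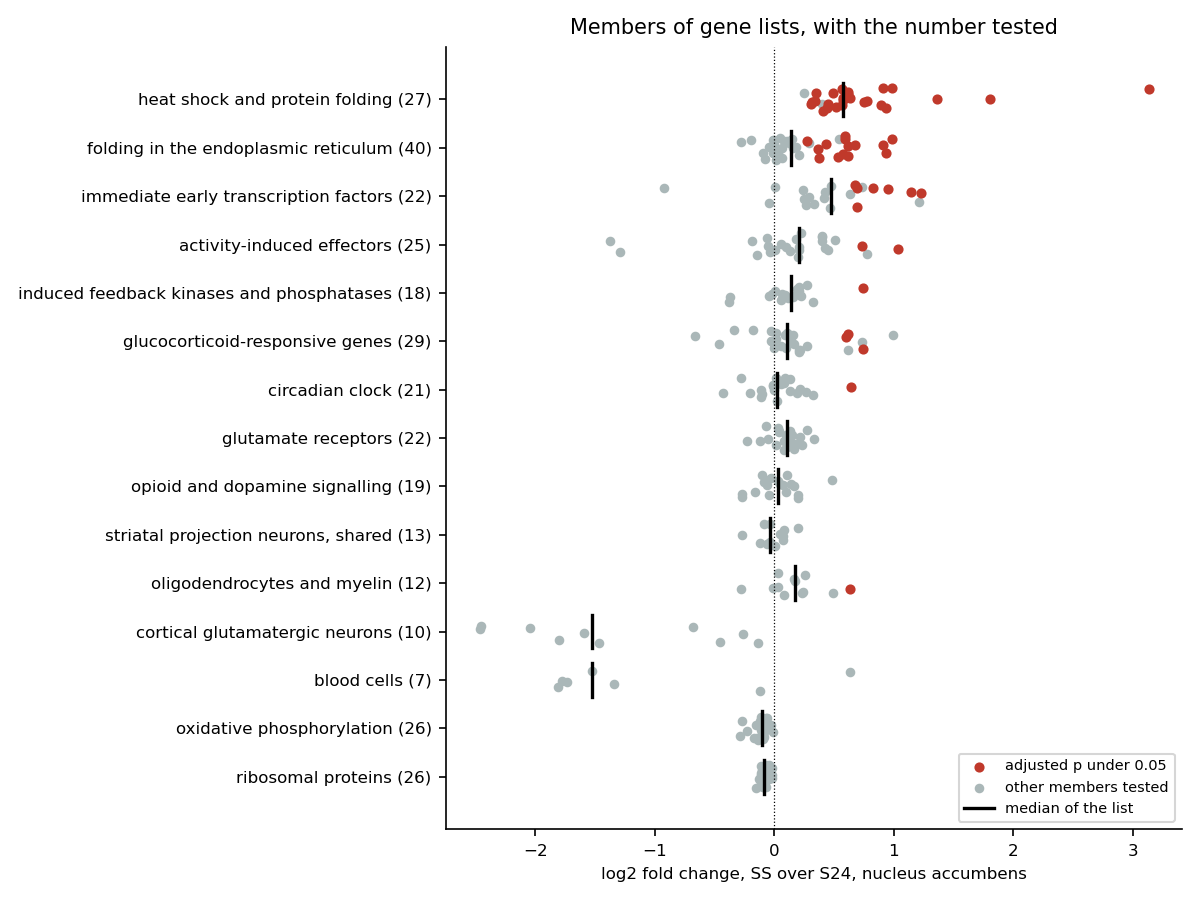
Log2 fold changes of SS over S24 in the nucleus accumbens for the tested members of 15 gene lists; each point is a gene, red where the edgeR adjusted p was under 0.05, and each bar is the list's median. Nearly all heat shock genes lie to the right of 0 and are red, while all 10 cortical and 6 of 7 blood markers lie to the left with no red point.

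The same change of injection and time was measured in mice with a cocaine history, where saline-injected mice at 30 d (CS, 5 libraries) were set against uninjected mice at 24 h (C24, 8 libraries). The 2 comparisons share no library, but they come from the same fit and share its estimate of the spread. Title numbers ran from NAc-014 to NAc-151 in CS and from NAc-171 to NAc-223 in C24. Injection, time, handling and cohort thus changed together here too, and calls shared by both comparisons cannot tell them apart. In CS 1496 genes (8.83%) were called, of which 739 (4.36%) rose and 757 (4.47%) fell. Without CS library NAc-151 the lower count was 400. With only CS and C24 in the fit 332 rose and 336 fell, and with only SS and S24 in the fit 322 rose and 304 fell. Both comparisons called 449 genes in the same direction, which is 69.9% of the calls in SS against S24 and 30.0% of those in CS against C24, and 0 in opposite directions. Across the 16935 genes the fold changes correlated with Pearson's r = 0.576 and Spearman's rho = 0.504, a description over genes, which are not independent replicates.

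Hspa5 had 431, 524 and 694 CPM in CS, against 164, 206 and 213 CPM in C24, and rose by 1.47 (edgeR adjusted p = 3.47e-09). Hspa1b rose by 4.22 with 6.82, 9.64 and 36.4 CPM in CS, against 0.674, 0.949 and 1.57 CPM in C24. Cirbp fell by 0.95 on the log2 scale, with 34.5, 45.0 and 69.5 CPM in CS, against 76.2, 93.6 and 110 CPM in C24. All 27 genes of the heat shock list were called higher, with a median of 0.88, against 4.36% of all genes in this comparison. So were 16 of the 22 immediate early factors, among them Egr1 (0.62, adjusted p = 0.0328) and Junb (0.67, adjusted p = 0.0401).

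The test of the difference between the histories called 0 genes by edgeR (609 at an unadjusted p under 0.05) and 0 by DESeq2 (664). For Hspa5 the difference of SS minus S24 from CS minus C24 was -0.53, with a 95% interval of the fit from -0.91 to -0.15 (adjusted p = 0.922), and for Fos it was -0.44 (-1.23 to 0.34). The genes with the smallest p in each direction were Akna, Rffl and Zfp558, whose differences were 0.57, 0.36 and 0.82, and Adprm, Cited2 and Rec8, whose differences were -0.33, -0.58 and -0.70 (adjusted p = 0.922 each). Rec8, a cohesin gene of meiosis, had 5.41, 9.53 and 11.8 CPM in SS, against 11.96, 14.9 and 20.4 CPM in S24, while CS and C24 overlapped.

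**Figure D4:**
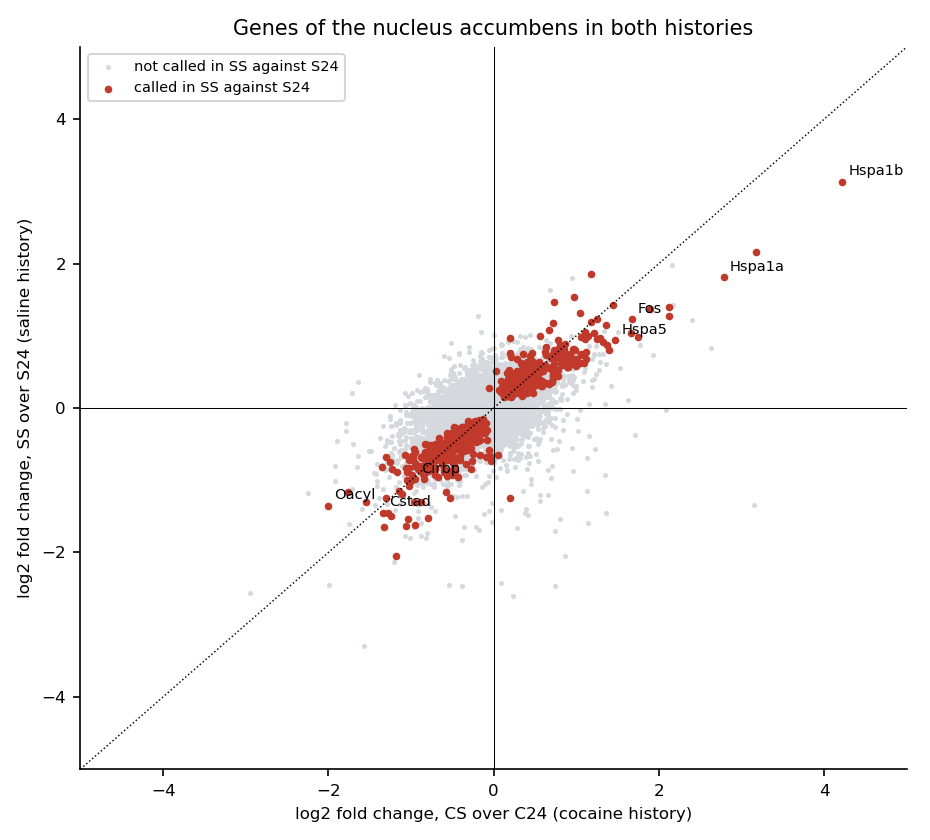
Log2 fold changes of 16935 genes in the nucleus accumbens, SS over S24 (y axis) against CS over C24 (x axis), with genes called in SS against S24 in red; 1 gene lies outside the axes. Most red points lie in the same quadrants on both axes, and Hspa1b is at 3.13 and 4.22.

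SS and S24 mice were also sampled in other regions, and the dorsal striatum (CPu) and the prefrontal cortex (PFC) were set beside the accumbens. More genes were called there: 1527 (9.19%) higher and 1285 (7.74%) lower in the CPu, with 7 SS and 8 S24 libraries, and 1173 (6.92%) higher and 1248 (7.36%) lower in the PFC, with 7 and 7. Of the 323 genes that rose in the accumbens, 275 rose in the CPu and 219 in the PFC, and of the 319 that fell 257 and 216 fell. Most of the mice are the same, so these counts are not independent of each other. In the PFC, several marker lists of cell types also had high medians in SS over S24. They were 1.88 for choroid plexus and ependyma (3 of 10 genes called higher), 1.68 for indirect pathway neurons (0 of 6), 1.07 for oligodendrocytes and myelin (1 of 12), 0.95 for neuroblasts and dividing cells (7 of 12) and 0.57 for the shared markers of projection neurons (1 of 13). Blood markers were at -1.22 there (3 of 7 called lower). The part of these in the differences between regions was not tested. The heat shock list had a median of 0.57 in the accumbens, 0.68 in the CPu and 0.67 in the PFC, and the immediate early factors had medians of 0.47, 0.72 and 0.99.

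The test of the difference between the accumbens and the CPu called 0 genes by edgeR (421 at an unadjusted p under 0.05) and 0 by limma voom (427). The smallest p-values belonged to Map2k6, Rad51d and Cep83os, with differences of 0.61, 0.31 and 0.43, and to Sfxn1, Ubash3b and Zbtb2, with differences of -0.38, -0.76 and -0.36 (smallest adjusted p = 0.800). The sign of a difference is not that of the change in the accumbens: Cep83os fell there, at -0.41 to -0.36 over the 23 alternative fits. Against the PFC, 1 of 17551 genes differed (0.0057%, higher in the accumbens), with 963 at an unadjusted p under 0.05. Hs3st5, a heparan sulfate sulfotransferase gene, had 13.2, 15.9 and 18.4 CPM in SS, against 9.08, 10.4 and 12.96 CPM in S24, a rise of 0.56 in the accumbens (adjusted p = 0.00333). In the PFC it fell by 0.41 on the log2 scale (adjusted p = 0.00718), and the difference was 0.97 (SE 0.16, edgeR adjusted p = 0.000836).

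With the mouse as a replicate block, the fit held only mice sampled in both regions, among them 5 of SS and 7 of S24. In it 3 genes differed between the accumbens and the PFC (edgeR adjusted p = 0.0312 each): Hs3st5 by 0.93, Fosb by -1.07 and Gem by -1.42. Fosb rose by 0.95 in the accumbens and by 1.89 in the PFC. The GTPase gene Gem, induced by activity in many cells, was at 0.40 in the accumbens (adjusted p = 0.375). Egr1, which missed the threshold in the accumbens, rose by 0.95 in the PFC and by 0.70 in the CPu. Its difference between regions was not called in either test.

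**Figure D5:**
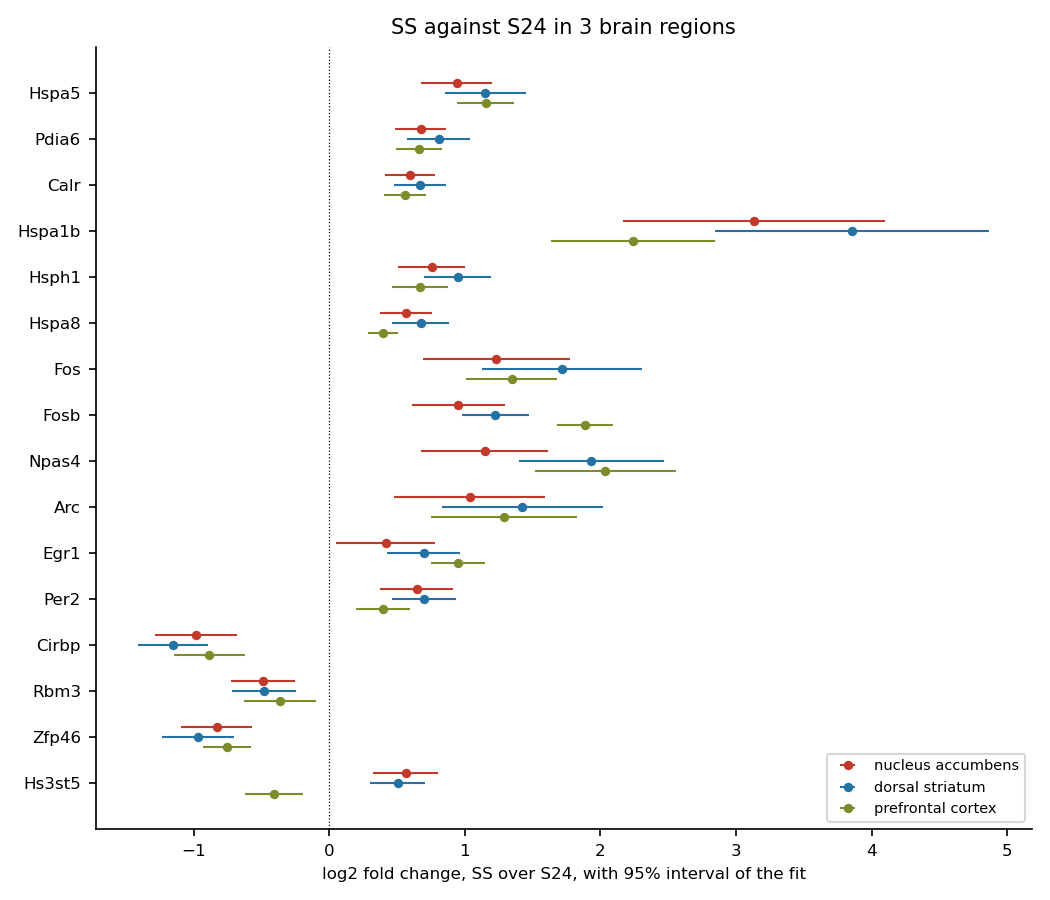
Log2 fold changes of SS over S24 for 16 genes in the nucleus accumbens, the dorsal striatum and the prefrontal cortex, with 95% intervals of each region's fit. The chaperones are to the right of 0 and Cirbp and Rbm3 to the left in all 3 regions, Fosb is farther right in the prefrontal cortex, and Hs3st5 is left of 0 there alone.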

How the data were processed

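RNA was measured in 230 libraries; the 14 of SS and S24 in the nucleus accumbens were compared. The labels' protocols describe Trizol and RNeasy micro extraction, a DNase step, removal of ribosomal RNA and the ScriptSeq Complete Gold kit; their molecule field reads polyA RNA. The submitters' processing notes name HTSeq, limma and mm10; the aligner, annotation release and strand setting are not given in the sources used here. The deposited table holds raw counts per Ensembl gene, with no normalization by the authors. It lists 43346 identifiers, 42462 of them (98.0%) in GENCODE M21, which gave symbols and positions; the 37 mitochondrial genes are listed at 0.

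Counts were fitted over the 39 accumbens libraries of 6 groups with edgeR 4.0.16 (R 4.3.3), using TMM factors, a filter on low counts (minimum 10, total 15) and the robust quasi-likelihood test with Benjamini-Hochberg adjustment. CPM were scaled by TMM over the same libraries. Differences between regions were fitted over both regions, with the mouse as a block as an alternative in mice sampled in both. Alternatives were DESeq2 1.42.0, limma voom 3.58.1, 2 surrogate variables (sva 3.50.0), other factors, no filter, the compared groups alone and each library left out; fits without the libraries that stand apart were added after seeing the data. Exact permutation tests used scipy 1.17.1. The test scripts were tested on simulated data. RefSeq promoters of GRCm38.p6 were searched for motifs.

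Named genes were the 12 with the smallest p in each direction, the 6 in each direction with the largest fold change and no overlap, 24 genes named whatever their result, called members of the lists, and the leading genes of each difference between regions or histories, with a symbol and at least 1 CPM. The groups, gene lists and named genes were chosen with earlier results of these data known, and Rbm3, Slc17a7, Slc6a3, Gem, Hspe1, Bag3, Ern1, Atf4, Ddit3 and Nr1d1 were named after their values were seen. Same-numbered libraries of the accumbens and dorsal striatum deviated together with a median correlation of 0.161 over 13 pairs (-0.0362 to 0.385), and those of the accumbens and prefrontal cortex with 0.0149 over 12 pairs (-0.149 to 0.279). Depth limits genes of few counts, such as Cstad and Hspa1a.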

Additional observations from a re-analysis of the deposited data

Results flagged for a closer look

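In 10 of 174 groups of values, 1 library stood far from the others of its group; chance gives about 1 in 20 such groups. Among genes, Cln6 reached 6.69 CPM in library NAc-122 of SS, Cstad was lowest at 0.537 CPM in library NAc-162 of SS, Zfp46 was lowest in library NAc-094 of SS at 40.3 CPM, and Hspa1a was highest in library NAc-073 of SS at 6.77 CPM. In S24, Npas4 was highest in library NAc-205 at 24.0 CPM and the interferon-induced gene Gbp4 in library NAc-191 at 7.48 CPM. Among summed markers, the direct pathway genes were lowest in library NAc-094 of SS at 605.2 CPM, the leptomeningeal genes highest in library NAc-182 of S24 at 114.8 CPM and the blood genes highest in library NAc-185 of S24 at 528.2 CPM. Library NAc-185 also had the largest total count, 42135683. Hs3st5 differed between regions, with a difference of SS minus S24 between the accumbens and the prefrontal cortex of 0.97 on the log2 scale (edgeR adjusted p = 0.000836).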

How the results depend on the processing

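Of 94 named genes tested, 70 were called in SS against S24, 60 of them in all 23 alternative fits, and 0 of the 70 changed direction. Some genes near 0 and without a call turned sign, Drd1 from -0.10 to 0.12 among them. The 642 calls became 967 (492 higher) with 2 surrogate variables, 410 (140 lower) with no filter on low counts, and 385 (184 lower) without NAc-094, NAc-185 and NAc-193. Leaving out 1 library gave 348 to 666 calls, 184 to 323 higher and 164 to 343 lower. For CS against C24 the fit of only those groups called 668 (332 higher, 336 lower), no filter left 368 lower, and leaving out 1 library gave 906 to 1586 calls, 506 to 957 higher and 400 to 768 lower. The causes were not tested. With the mouse as a replicate block, 3 genes differed between the accumbens and the prefrontal cortex, 2 of them lower, and 0 between the accumbens and the dorsal striatum. Within the accumbens no paired analysis was possible because SS and S24 share no mouse number. Injection, withdrawal time, handling and cohort cannot be told apart, and the small groups and low counts limit what could be called.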

Other observations

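Genes without protein products were unevenly placed among the calls, a count made after values were seen. Long noncoding RNA genes were 2.48% of the genes that rose, 21.3% of those that fell and 9.12% of all tested.

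Gh and Myl1, named after values were seen, were called at very low levels. Gh, the growth hormone gene, was called higher (edgeR adjusted p = 0.0255), with 2.60, 1.63 and 5.19 CPM in libraries NAc-035, NAc-052 and NAc-122 of SS and at most 0.0997 CPM in the other SS libraries, against 0 to 0.411 CPM in S24. Myl1, a muscle myosin gene, had 0 to 0.137 CPM in SS, against 0.158 to 0.534 CPM in S24 (-2.04, adjusted p = 0.00335).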
